A study of Mus musculus with 89 samples.

Results

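Mitosis and G2/M genes are described here as a group of 32 genes chosen by name, all of which were found among the 26276 named rows of an RNA-seq count table. The members cover the cyclins and the kinase that start mitosis, the chromosomal passenger complex, the spindle checkpoint, kinetochore proteins, the machinery of anaphase, spindle motors and 2 chromosome proteins. The cells were V6.5 mouse embryonic stem cells kept in medium with LIF and inhibitors of MEK and GSK3, and in both groups the gene of histone H2A.Z.1 (H2afz) carried the FKBP-V tag that makes its protein a target of the dTAG degrader. The comparison asks which transcripts differ after H2A.Z.1 is depleted, with 3 libraries labelled Control and 3 labelled dTAG. The sources used here do not give how long the RNA samples were treated, what the controls received or whether the tagged line is a single clone. The remaining 83 samples of the series were not analysed here.

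Mitotic genes are switched on late in each cell cycle. Their promoters often hold a cell cycle homology region, which the MuvB complex binds through Lin54, together with CCAAT boxes bound by NF-Y. With its DREAM partners MuvB represses these genes in resting and G1 cells, and with B-Myb and FoxM1 it helps to activate them in G2. Dividing stem cells pass through G2 and M, so mitotic transcripts are present in an unsynchronised culture. In RNA from a whole culture, fewer cells in G2 and M and less RNA per cell cannot be told apart.

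Promoter sequences are shown first, since shared motifs are what these genes are known for. Promoter windows from RefSeq (build GRCm38.p6) run from 250 bases before to 50 bases after the annotated start and were found for 27 of the 32 members. The homology region was searched as TTTGAA or, on the other strand, TTCAAA, and the CCAAT box as CCAAT or ATTGG. Below, the windows of the 4 members with the highest control CPM among those that hold both motifs are shown with that of Plk1, whose counts behaved unlike those of most members and which was added after its values were seen. Capitals mark the motif matches on either strand. The coordinates are chr11:99024140-99024439, minus strand for Top2a, chr7:135716330-135716629, minus strand for Mki67, chr1:189688037-189688336, minus strand for Cenpf, chr2:118597961-118598260, plus strand for Bub1b and chr7:122159185-122159484, plus strand for Plk1.
Top2a: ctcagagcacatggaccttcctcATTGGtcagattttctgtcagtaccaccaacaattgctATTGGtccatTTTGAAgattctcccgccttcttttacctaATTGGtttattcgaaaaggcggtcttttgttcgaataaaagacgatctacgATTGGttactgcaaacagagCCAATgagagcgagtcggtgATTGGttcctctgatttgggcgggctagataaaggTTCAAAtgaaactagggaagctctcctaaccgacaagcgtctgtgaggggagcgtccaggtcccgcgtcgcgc
Mki67: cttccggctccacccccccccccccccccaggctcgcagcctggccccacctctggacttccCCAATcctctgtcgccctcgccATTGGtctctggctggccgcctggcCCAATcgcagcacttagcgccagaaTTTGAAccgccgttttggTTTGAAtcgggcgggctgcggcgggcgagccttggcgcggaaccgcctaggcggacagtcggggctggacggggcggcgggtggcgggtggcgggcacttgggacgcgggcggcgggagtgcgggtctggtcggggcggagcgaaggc
Cenpf: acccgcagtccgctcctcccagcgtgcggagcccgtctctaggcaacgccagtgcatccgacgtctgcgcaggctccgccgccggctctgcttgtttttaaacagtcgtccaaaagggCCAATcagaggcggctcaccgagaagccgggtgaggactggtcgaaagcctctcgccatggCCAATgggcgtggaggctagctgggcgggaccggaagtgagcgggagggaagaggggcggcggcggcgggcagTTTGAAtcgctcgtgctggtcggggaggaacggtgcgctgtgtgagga
Bub1b: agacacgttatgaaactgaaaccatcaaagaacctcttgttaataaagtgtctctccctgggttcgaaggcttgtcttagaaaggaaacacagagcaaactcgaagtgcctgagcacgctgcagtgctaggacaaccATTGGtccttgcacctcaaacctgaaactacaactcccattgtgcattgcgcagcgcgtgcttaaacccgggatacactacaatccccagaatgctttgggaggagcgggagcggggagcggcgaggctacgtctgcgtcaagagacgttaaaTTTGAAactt
Plk1: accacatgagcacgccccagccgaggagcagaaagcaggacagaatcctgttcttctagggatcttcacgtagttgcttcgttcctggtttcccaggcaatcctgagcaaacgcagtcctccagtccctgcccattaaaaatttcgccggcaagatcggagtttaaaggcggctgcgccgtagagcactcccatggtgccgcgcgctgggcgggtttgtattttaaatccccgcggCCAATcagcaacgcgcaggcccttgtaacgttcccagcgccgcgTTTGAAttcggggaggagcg

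Of the 27 members with a window, 19 (70.4%) held the homology core, against 20.2% of the 27025 genes with a window. CCAAT boxes were found in 20 members (74.1%), against 41.1% of all genes, and 16 members (59.3%) held both motifs in the same window, against 7.97%. In 17 of the 19 members with a core, a copy lay within 50 bases of the annotated start. Bub1b had its core 41 to 46 bases after the start and Plk1 had it 31 to 36 bases after. The core of Cenpf began 3 bases after the start, and Top2a had a copy on the opposite strand at positions -23 to -18. CCAAT boxes lay mostly upstream of the start, in some genes at similar intervals. Ccnb2 carried 3 of them, each 33 bases from the next, the pairs in Aurka and Ccnb1 lay 32 bases apart, and the pair in Nek2 lay 33 bases apart. In other members, neighbouring boxes on the same strand lay 29 to 128 bases apart. In Cdca8 a core and a CCAAT box overlapped. No match to either motif was found in the windows of Birc5, Mad2l1, Nuf2 and Nusap1. A match is a stretch of letters in the window and was not tested as a binding site.

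**Figure D1:**
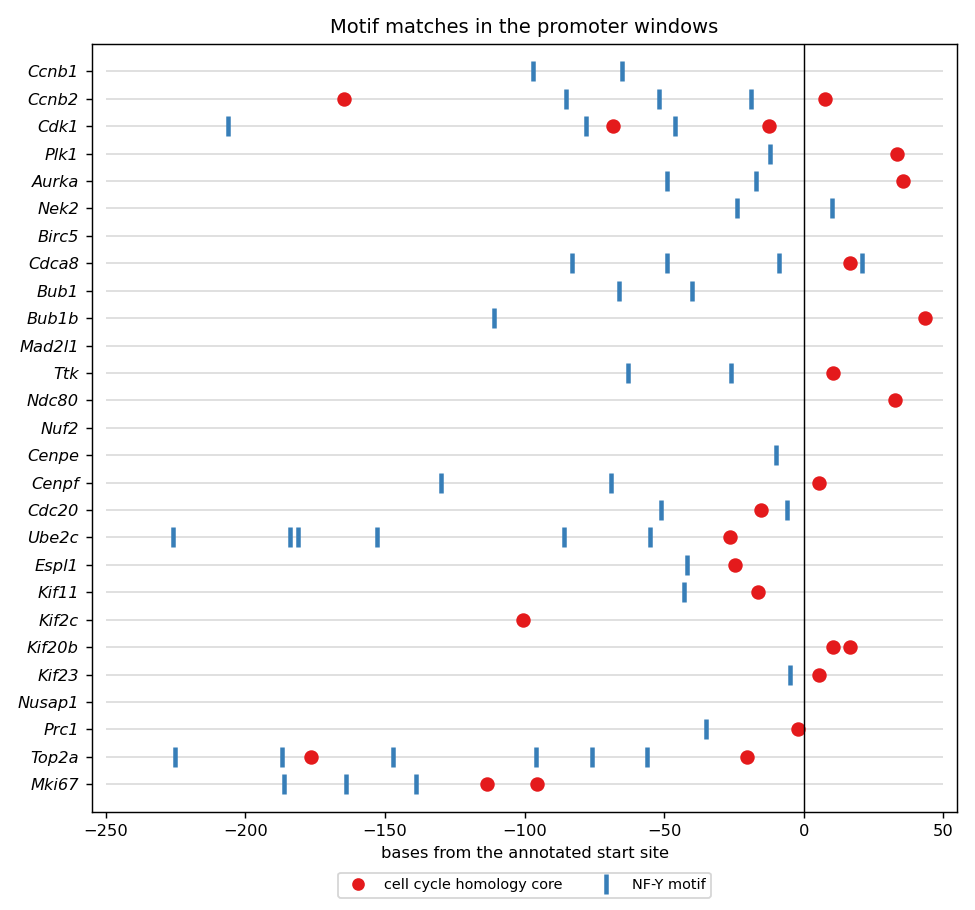
Positions of motif matches in the promoter windows of 27 mitosis and G2/M genes, in bases from the annotated start site (vertical line), with 1 row per gene. Red circles are cell cycle homology cores (present in 19 genes) and blue bars are CCAAT boxes, labelled NF-Y motif (present in 20 genes). Most cores lie within 50 bases of the start, with the boxes mainly upstream.

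The dTAG libraries differed greatly from each other, and every comparison below turns on that. Control libraries held 14091745 to 15652795 counts in named genes and dTAG replicate 1 held 12907095, whereas dTAG replicates 2 and 3 held 2131648 and 1812405. Olfactory and vomeronasal receptor genes, which stem cells do not use, number 1462 in the table. A count was present for 10.9% to 18.2% of them in each control, and for 23.5%, 71.5% and 97.0% of them in dTAG replicates 1, 2 and 3. The 10 embryonic stem cell markers, all detected in all 6 libraries, summed to 2635 to 2773 CPM (counts per 1000000 counts in named genes) in the controls and to 2857, 1710 and 526 CPM in dTAG replicates 1, 2 and 3. The 12 feeder fibroblast markers summed to 26.8 to 37.6 CPM in the controls, where 3 to 5 of them were at 0, and to 27.7, 204.5 and 648 CPM with dTAG, with none at 0 in replicates 2 and 3. Markers of differentiated lineages, 13 genes, summed to 140.4 to 181 CPM in the controls and to 175, 359.8 and 781 CPM. The H2afz transcript, at 78.8, 81.9 and 95.7 CPM without and 107, 56.3 and 35.9 CPM with dTAG, does not check the protein that the degrader removes. What part these differences between libraries have in the values of the mitotic genes was not tested.

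In dTAG replicate 1 the mitotic genes stood at the level of the controls, and in dTAG replicates 2 and 3 most of them stood below it. Together the 32 members took 5357, 4833 and 4949 CPM in control replicates 1, 2 and 3, and 5331, 3852 and 1743 CPM in dTAG replicates 1, 2 and 3. As a share of the control mean of 5046 ± 275 CPM (SD, n = 3), this was 106%, 76.3% and 34.5%. By role, the summed CPM was 100% to 109% of the control mean in dTAG replicate 1 and 70.5% (cyclins and Cdk1) to 94.6% (mitotic kinases) in dTAG replicate 2. In dTAG replicate 3 it ran from 15.0% for the chromosome proteins, 22.9% for the kinetochore and 24.7% for the cyclins and Cdk1 to 61.6% for the mitotic kinases and 84.5% for the chromosomal passenger complex. In dTAG replicate 1, 21 members lay within the range of the 3 controls, 11 lay above it and 0 below, while 34.2% of the 18116 tested genes lay above and 16.9% below. In dTAG replicate 2, 25 members lay below all 3 controls and 3 lay above, against 22.4% and 63.4% of tested genes. In dTAG replicate 3, 28 lay below and 4 above, against 22.4% and 72.3%. Thus in the last 2 libraries the members lay mainly on the side of the controls where the minority of tested genes lay. Placements above or below the controls compare CPM alone and do not allow for counting error. The tested genes were not matched to the members for control level.

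**Figure D2:**
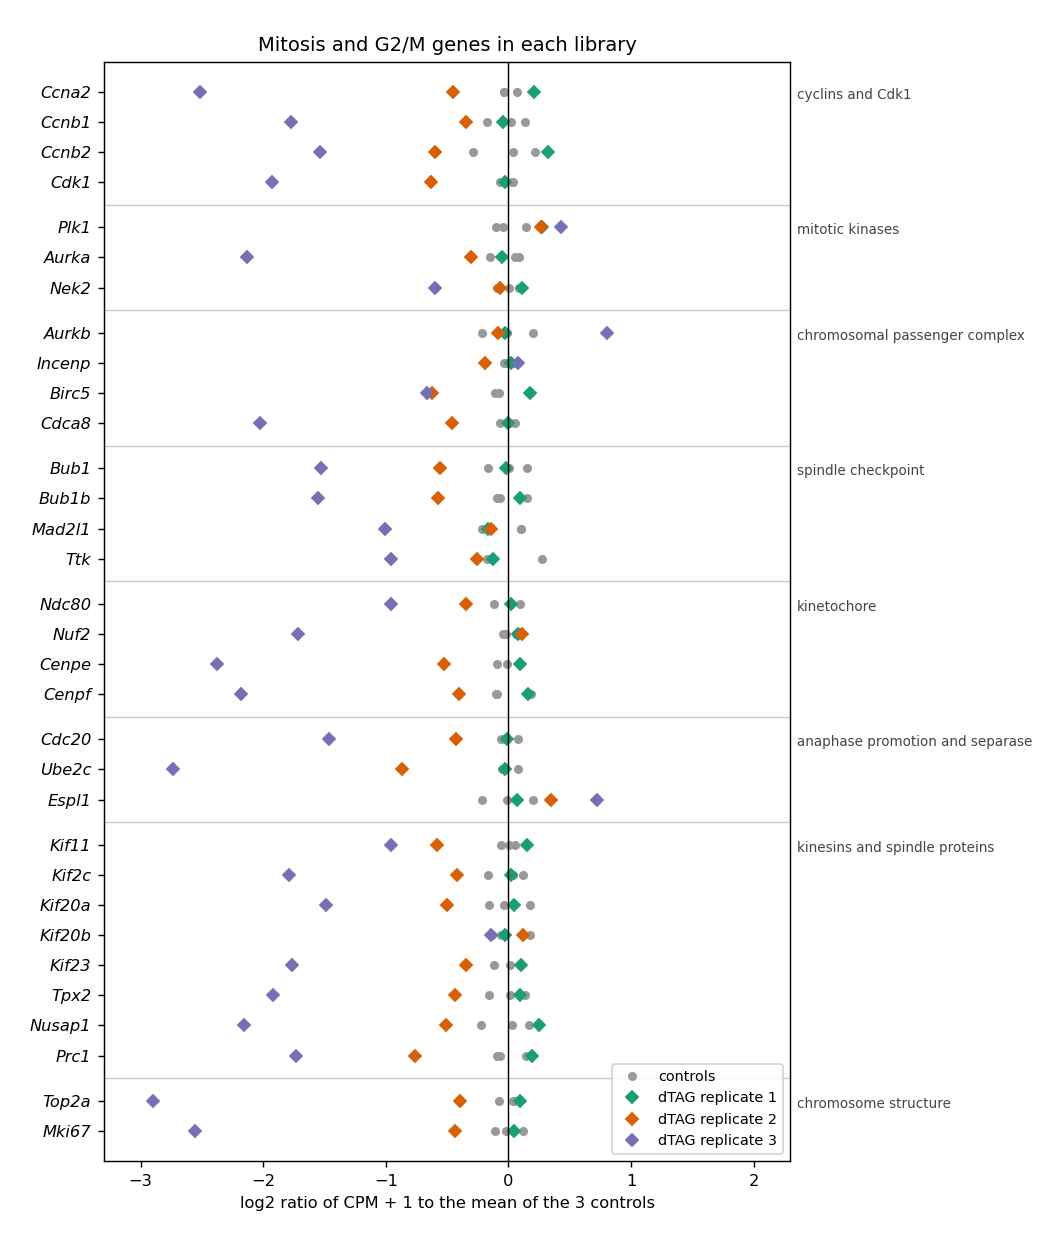
Log2 ratio of CPM + 1 to the mean of the 3 controls (x axis) for the 32 mitosis and G2/M genes (rows, by role). Grey circles are the 3 controls and diamonds are dTAG replicates 1 (green), 2 (orange) and 3 (purple). Of the green diamonds 21 lie within the range of the controls, whereas 28 of the purple ones lie to the left of all controls.

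Cdk1 and its cyclins drive entry into mitosis. Cdk1, the kinase itself, had 138, 129 and 139 CPM in control replicates 1, 2 and 3 and 132, 86.8 and 34.8 CPM in dTAG replicates 1, 2 and 3 (edgeR log2 change -1.06 with SE 0.81, adjusted p = 0.434). Ccnb1 encodes cyclin B1, the main mitotic partner of Cdk1, and had 114, 106 and 92.1 CPM in the controls and 101, 81.6 and 29.8 CPM with dTAG (edgeR log2 change -0.97 with SE 0.76, adjusted p = 0.44). For both genes dTAG replicate 1 lay inside the control range and the other dTAG libraries lay below it. Ccna2, the cyclin of S phase and G2, had 121, 112 and 112 CPM in the controls and 133, 83.97 and 19.3 CPM with dTAG (edgeR log2 change -0.87 with SE 0.90, adjusted p = 0.504). Ccnb2, the second B-type cyclin, had 36.7, 46.3 and 52.6 CPM in the controls and 56.7, 29.6 and 14.9 CPM after dTAG. Both of these cyclins were above every control in dTAG replicate 1 and below every control in replicates 2 and 3, so their groups overlapped. Reads of Ccna2 are uncertain where the gene overlaps Exosc9, since it is not given whether counting used the strand.

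Mitotic kinases outside the Cdk1 complex did not share a pattern. Plk1, which acts at mitotic entry, at the spindle and in cytokinesis, had 53.99, 64.01 and 56.1 CPM in the controls and 70.2, 69.9 and 78.3 CPM with dTAG. It was the single member above every control in all 3 dTAG libraries, a pattern found in 23.9% of tested genes. Scaled by TMM, edgeR's correction for library composition, its fitted change had the opposite sign (edgeR log2 change -0.34 with SE 0.47, adjusted p = 0.595), and with library totals alone it was 0.33 (edgeR adjusted p = 0.376). Aurka, the kinase of the spindle poles, stood at 117, 101 and 119 CPM in the controls and 108, 91.01 and 24.8 CPM with dTAG (edgeR log2 change -0.99 with SE 0.81, adjusted p = 0.456). Nek2, which helps to separate the centrosomes, stood at 47.5, 50.1 and 44.1 CPM in the controls and 51.1, 45.04 and 30.9 CPM with dTAG. Aurka was below the controls in dTAG replicates 2 and 3 and Nek2 in replicate 3 alone. Aurka overlaps Cstf1 in the annotation.

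The chromosomal passenger complex corrects faulty attachments between chromosomes and spindle, and its 4 genes diverged in dTAG replicate 3. Aurkb, its kinase, had 31.6, 36.5 and 42.4 CPM in the controls and 36.03, 34.7 and 65.1 CPM with dTAG, the last above every control. Incenp, the scaffold, had 189.5, 178 and 179 CPM in the controls and 185, 159.5 and 192 CPM with dTAG (edgeR log2 change -0.67 with SE 0.63, adjusted p = 0.482), so it was within the controls, below them and above them in turn. The exact Poisson 95% interval of Incenp in dTAG replicate 3, 172 to 213 CPM (counting error only), includes the highest control. Birc5, or survivin, which anchors the complex at the centromere, had 95.1, 79.99 and 77.8 CPM in the controls and 95.6, 54.4 and 52.97 CPM after dTAG. Its partner Cdca8, or borealin, had 91.9, 83.95 and 89.2 CPM in the controls and 88.2, 63.8 and 20.97 CPM with dTAG (edgeR log2 change -0.999 with SE 0.78, adjusted p = 0.441). The sum over the 4 genes in dTAG replicates 2 and 3 was 79.8% and 84.5% of the control mean, the latter share resting on Incenp and Aurkb.

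Genes of the spindle checkpoint, which delays anaphase until every kinetochore is attached, were all below the controls in dTAG replicate 3. Bub1, a checkpoint kinase, had 76.7, 67.98 and 85.2 CPM in the controls and 75.5, 51.6 and 25.9 CPM with dTAG (edgeR log2 change -1.01 with SE 0.70, adjusted p = 0.41). Bub1b, which encodes BubR1 of the mitotic checkpoint complex, had 184, 155 and 158 CPM in the controls and 177, 111 and 55.7 CPM with dTAG (edgeR log2 change -0.93 with SE 0.81, adjusted p = 0.466). Mad2l1, which encodes the Mad2 protein of that complex, had 35.7, 35.6 and 28.4 CPM in the controls and 29.4, 30.02 and 16 CPM after dTAG. All 3 were inside the control range in dTAG replicate 1, and Mad2l1 was inside it in replicate 2 as well. Ttk, the Mps1 kinase that starts the signal, ran at 53.2, 39.5 and 38.8 CPM in the controls and 39.98, 36.6 and 22.1 CPM with dTAG. In dTAG replicate 3 Mad2l1 and Ttk were at 48.1% and 50.3% of their control means, whereas Bub1 and Bub1b were at 33.9% and 33.6%.

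At the kinetochore, the 2 large proteins had smaller shares of their control level in dTAG replicate 3 than Ndc80 did. Cenpf, a farnesylated protein of the outer kinetochore, had 508, 417 and 419 CPM in the controls and 501, 339 and 97.7 CPM with dTAG (edgeR log2 change -0.88 with SE 1.04, adjusted p = 0.548). Cenpe, a kinesin that moves chromosomes to the spindle equator, had 268, 249 and 234 CPM in the controls and 268, 173 and 47.5 CPM with dTAG (edgeR log2 change -0.97 with SE 0.95, adjusted p = 0.493). In dTAG replicate 3 these were 21.8% and 18.9% of the control means. Ndc80, the microtubule-binding subunit of its complex, had 45.6, 41.3 and 47.97 CPM in the controls and 45.7, 35.2 and 22.6 CPM after dTAG, ending at 50.3%. Nuf2, the partner of Ndc80 in the same complex, had 37.8, 40.2 and 37.4 CPM in the controls and 40.7, 41.8 and 11.04 CPM with dTAG. Nuf2 was above all controls in dTAG replicates 1 and 2. The exact Poisson 95% intervals there (37.3 to 44.3 and 33.5 to 51.4 CPM, counting error only) include the highest control. In dTAG replicate 3 Nuf2 was below the controls at 28.7% of its control mean, nearer to Cenpf and Cenpe than to Ndc80. There it rested on 20 counts (exact Poisson 95% interval 6.74 to 17.0 CPM, counting error only).

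The 3 genes of anaphase diverged, with Ube2c and Cdc20 below the controls and Espl1 above them in dTAG replicates 2 and 3. Ube2c, the ubiquitin-conjugating enzyme of the anaphase-promoting complex, had 130.5, 121 and 119 CPM in the controls and 121, 67.1 and 17.7 CPM with dTAG (edgeR log2 change -1.16 with SE 0.91, adjusted p = 0.441). Its 54.4% of the control mean in dTAG replicate 2 was the lowest share among the members in that library. Cdc20, which activates the same complex, had 67.5, 69.2 and 74.4 CPM in the controls and 69.96, 52.1 and 24.8 CPM after dTAG, and it overlaps Elovl1. Espl1, the separase that cuts cohesin, had 82.1, 61.5 and 70.8 CPM in the controls and 75.1, 91.01 and 119 CPM with dTAG (edgeR log2 change -0.34 with SE 0.44, adjusted p = 0.579). Espl1 was inside the control range in dTAG replicate 1 and above it in replicates 2 and 3, and with library totals alone its fitted change was 0.41 (edgeR adjusted p = 0.359).

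**Figure D3:**
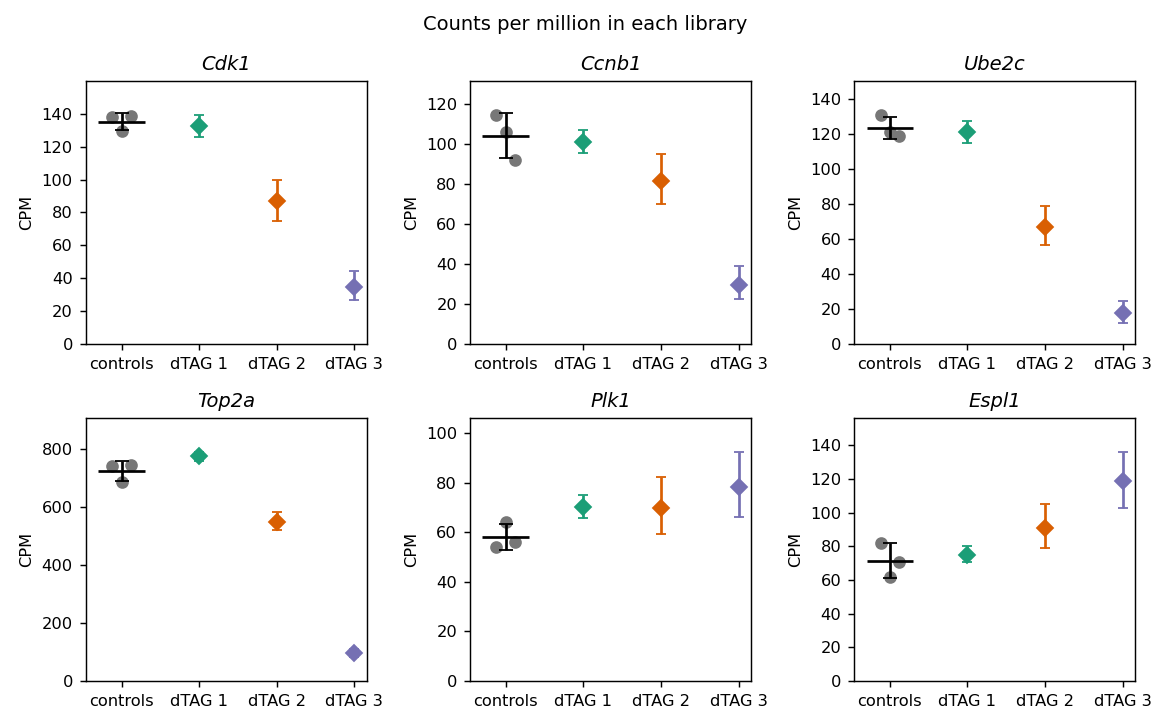
CPM of 6 members in each library. Grey circles are the 3 controls with their mean and SD (black), and diamonds are the dTAG libraries with exact Poisson 95% intervals, which cover counting error only. Cdk1, Ccnb1, Ube2c and Top2a are lower in dTAG replicates 2 and 3, whereas Plk1 and Espl1 lie above all controls there.

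Spindle motors and microtubule proteins followed the majority, with Kif20b apart. Tpx2, which activates Aurora A and seeds microtubules, had 262, 215 and 241 CPM in the controls and 256, 176 and 62.4 CPM with dTAG (edgeR log2 change -0.92 with SE 0.90, adjusted p = 0.491). Kif20b, a kinesin of cytokinesis, had 221, 187 and 178 CPM in the controls and 192, 212 and 177 CPM with dTAG (edgeR log2 change -0.63 with SE 0.66, adjusted p = 0.507), inside the control range except for replicate 3, where it was 90.6% of the control mean. Kif11, the motor that pushes the spindle poles apart, stood at 134, 138 and 128 CPM in the controls and 148, 88.7 and 68.4 CPM after dTAG. Kif11 kept 51.2% of its control mean in dTAG replicate 3, more than the other motors except Kif20b. Kif23 of the centralspindlin complex had 165, 142 and 156 CPM in the controls and 165, 122 and 44.7 CPM with dTAG. Kif2c, which shortens microtubules, had 124, 107 and 132 CPM in the controls and 123, 90.1 and 34.2 CPM with dTAG. Kif20a, which carries the passenger complex to the midzone, had 166, 132 and 144 CPM in the controls and 152, 104 and 51.9 CPM with dTAG. These 3 kinesins were close to each other in dTAG replicate 3, at 28.9%, 28.3% and 35.2% of their control means. Prc1, which crosslinks midzone microtubules, had 161, 136 and 139 CPM in the controls and 166, 85.4 and 43.04 CPM with dTAG. Nusap1, a microtubule-bundling protein, had 89.2, 107 and 117 CPM in the controls and 124, 72.7 and 22.6 CPM with dTAG. Both were above every control in dTAG replicate 1 and below every control in the other dTAG libraries. Kif20a overlaps Brd8 and Cdc23, Prc1 overlaps Rccd1 and Nusap1 overlaps Oip5, with the same limit on their reads.

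The 2 chromosome proteins were inside or above the control range in dTAG replicate 1 and far below it in dTAG replicate 3. Top2a, the topoisomerase that untangles sister chromatids, had 739, 684 and 744 CPM in the controls and 773, 549 and 96.01 CPM with dTAG (edgeR log2 change -0.95 with SE 1.22, adjusted p = 0.576). Mki67, the Ki-67 protein that coats mitotic chromosomes, had 768, 699 and 655 CPM in the controls and 730.0, 524 and 119 CPM with dTAG (edgeR log2 change -0.98 with SE 1.17, adjusted p = 0.551). Mki67 was inside the control range in dTAG replicate 1 and Top2a was above it. In dTAG replicate 3 they stood at 16.8% and 13.3% of their control means, the latter the lowest share of all members there. At the other end of that library were Aurkb at 177%, Espl1 at 166%, Plk1 at 135% and Incenp at 105%. The order of the members was kept in most libraries. Spearman's rho with the mean of the (other) controls, across the 32 genes, was 0.984 to 0.987 for the controls, 0.991 for dTAG replicate 1, 0.937 for dTAG replicate 2 and 0.600 for dTAG replicate 3. These genes share a library and are not independent replicates.

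Across all 6 libraries no mitotic gene passed the test. By edgeR's quasi-likelihood test, 0 of the 32 members had an adjusted p under 0.05 and 0 had an unadjusted p under 0.05, and DESeq2 and limma-voom likewise called 0 members. The background gave no calls to compare with, since 0% of 18116 genes were called by edgeR, with 4202 at an unadjusted p under 0.05. DESeq2 called 5196 of 25668 genes without a filter on low counts, and limma-voom called 0 of 18116. All 32 members passed the filter. Their fitted log2 changes ran from -1.16 for Ube2c to -0.34 for Espl1 and Plk1, with SE of 0.36 to 1.22, and their median was -0.92 against 0.16 for all tested genes. All 32 fitted changes lay below the median of all genes. The tested genes were not matched to the members for control level. Outside the list, the 10 stem cell markers summed to 2635 to 2773 CPM in the controls and 2857, 1710 and 526 CPM with dTAG. The 1462 receptor genes summed to 52.6 to 62.9 CPM in the controls and 165, 2447 and 8269 CPM with dTAG. Whether the gap to all genes is particular to mitotic genes was not tested.

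The calls depended on which dTAG libraries entered the fit. Leaving out dTAG replicate 1, edgeR called 21 of 32 members lower and 0 higher, where 19.8% of 22093 tested genes were called lower and 40% higher, and the members' median log2 change was -2.05 against 0.68 for all genes. The changes that passed included Cdk1 (log2 fold change -2.27, edgeR adjusted p = 0.0321), Ccnb1 (-2.0, edgeR adjusted p = 0.0408), Ube2c (-2.60, edgeR adjusted p = 0.0237) and Bub1 (-2.15, edgeR adjusted p = 0.0167). Plk1, Incenp, Espl1, Kif20b, Top2a and Mki67 were among the 11 that did not pass, at edgeR adjusted p of 0.0973, 0.125, 0.187, 0.187, 0.214 and 0.203. A call did not always mean lower CPM. Aurkb was called lower (log2 fold change -1.05, edgeR adjusted p = 0.0332). It had 34.7 and 65.1 CPM in dTAG replicates 2 and 3, within and above the controls. Nuf2, Nek2 and Mad2l1 were called too, though below the controls in dTAG replicate 3 alone. TMM factors of dTAG replicates 2 and 3 were 1.23 and 2.49 in the fit of 6 libraries, beside 0.73 to 0.79 across controls. No fit without dTAG replicate 1 used library totals alone. With dTAG replicate 1 alone against the controls, 0 of 32 members were called, 0 had an unadjusted p under 0.05, and 0.0882% of 18143 genes were called by edgeR. In that comparison the members' median log2 change was -0.02, the same as for all genes, with values from -0.26 for Mad2l1 (SE 0.25) to 0.24 for Ccnb2 (SE 0.21). Top2a had a change of 0.01 (SE 0.09) and Cdk1 of -0.12 (SE 0.14). The lone dTAG library is assumed there to vary like the controls.

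Groups that do not overlap gave the same contrast. In CPM, 0 of 32 members were lower in all 3 dTAG libraries than in all 3 controls, as were 3.22% of tested genes, and 1 member (3.12%), Plk1, was higher in all 3, as were 23.9% of tested genes. Without dTAG replicate 1, 24 members were lower in both remaining libraries, as were 17.8% of tested genes, and 2 members, Plk1 and Espl1, were higher, as were 61.6%. With TMM-scaled CPM, 6 of 32 were lower in all 3 dTAG libraries, against 10.0% of tested genes, and 0 were higher, against 17.8%.

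Other mitotic genes, and the genes of the preceding G1/S step, gave medians on the same side as the members in each dTAG library. The members' median log2 ratio of CPM + 1 to the controls was 0.06, -0.43 and -1.64 in dTAG replicates 1, 2 and 3. Over 95 further mitotic genes it was 0.05, -0.26 and -0.88, over 36 DNA replication and G1/S genes it was 0.10, -0.33 and -0.72, and over all tested genes it was 0.06, 0.69 and 1.73. Each control set against the other controls gave a median for the members of -0.10 to 0.10. The differences between these lists were not tested. In the fit of 6 libraries, 0 of the 95 further mitotic genes and 0 of the 36 G1/S genes were called in either direction by edgeR, and without dTAG replicate 1 edgeR called 64 lower and 1 higher of the former and 21 lower and 1 higher of the latter, beside 19.8% lower and 40% higher of all genes tested there.

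**Figure D4:**
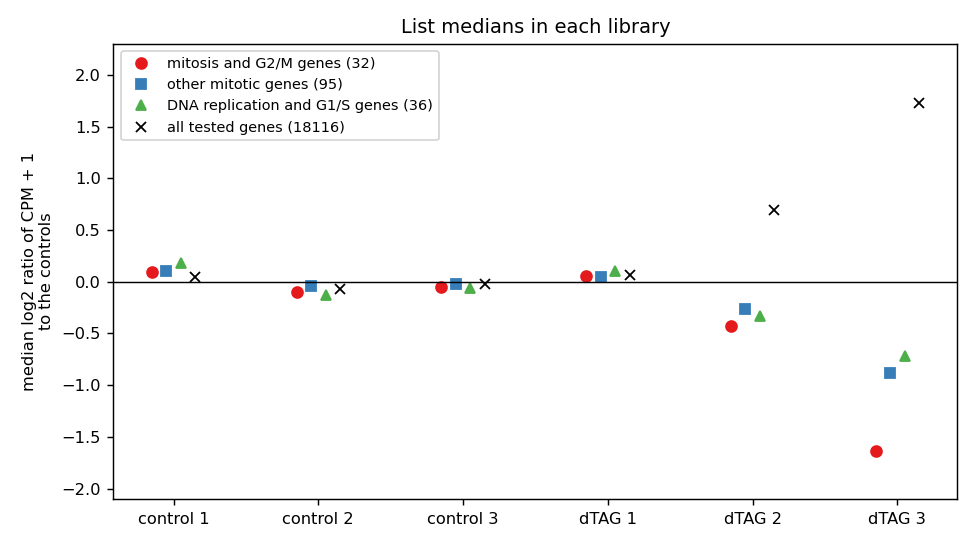
Median log2 ratio of CPM + 1 to the controls (y axis) in each library (x axis) for the 32 mitosis and G2/M genes, 95 other mitotic genes, 36 DNA replication and G1/S genes and all 18116 tested genes. Each control is set against the other controls and each dTAG library against the mean of all 3. The lists coincide in dTAG replicate 1 and part from all tested genes in dTAG replicates 2 and 3, where the members reach -1.64.

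The 95 further mitotic genes lay on both sides of the controls. In dTAG replicate 1, 36 of them (37.9%) lay above every control and 20 (21.1%) below, close to the 34.2% and 16.9% of tested genes. In dTAG replicate 2 the counts were 20 (21.1%) and 58 (61.1%), against 63.4% and 22.4% of tested genes. In dTAG replicate 3 they were 25 (26.3%) and 66 (69.5%), against 72.3% and 22.4%. Spindle and cytokinesis genes lay mostly below in dTAG replicate 3 (23 of 26), as did condensin subunits (7 of 8), whereas genes that control Cdk1 were divided, with 5 above and 6 below. Of MuvB and its partners, 7 of 9 lay above every control in dTAG replicate 3, as did 72.3% of tested genes. Foxm1, which encodes an activating partner of MuvB, had 43.2, 42.04 and 36.4 CPM in the controls and 45.1, 45.04 and 62.9 CPM with dTAG. Rbl2, which encodes the p130 protein of the DREAM complex, had 4.14, 5.81 and 7.45 CPM in the controls and 8.13, 25.3 and 51.3 CPM with dTAG. These 2 genes were chosen after their values were seen. Both were above every control in CPM in all 3 dTAG libraries, as were Lin52 of the same role and 23.9% of tested genes. With TMM scaling the fitted change of Foxm1 had the opposite sign (edgeR log2 change -0.39 with SE 0.39, adjusted p = 0.497). That of Rbl2 stayed positive (edgeR log2 change 1.20 with SE 0.49, adjusted p = 0.186). The other genes of this role above every control in dTAG replicate 3 were Lin9, Lin37, Lin52, Lin54 and Rbl1, and Mybl2 and Rbbp4 were below. Mybl2 and Rbbp4 had control means of 340 and 272 CPM, whereas the 7 genes above had 4.77 to 40.6 CPM. The roles were not matched for control level.

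The gene of each role with the highest control CPM lay on the lower side in dTAG replicates 2 and 3, also where most of its role did not. Kif4, a chromosome-bound kinesin, had 717, 565 and 647 CPM in the controls and 748, 402 and 43.04 CPM with dTAG. Mybl2, which encodes B-Myb, the activating partner of MuvB, had 331, 353 and 335 CPM in the controls and 344, 274 and 74.5 CPM with dTAG. Smc4, an ATPase of condensin, had 271, 195 and 215 CPM in the controls and 258, 165 and 38.1 CPM with dTAG. In dTAG replicate 1 Mybl2 and Smc4 were inside the control range and Kif4 above it. Anapc5, a subunit of the anaphase-promoting complex, had 237, 198 and 214 CPM in the controls and 207, 142 and 54.6 CPM with dTAG. Sgo2a, a shugoshin that guards centromeric cohesin, had 216, 181 and 194 CPM in the controls and 207, 121 and 22.1 CPM with dTAG. Ccnf, an F-box protein related to the cyclins, had 161, 132 and 125 CPM in the controls and 134, 99.9 and 70.1 CPM with dTAG. Spc25, of the Ndc80 complex, had 113, 90.8 and 112 CPM in the controls and 102, 76.9 and 30.3 CPM with dTAG. All 7 were below every control in dTAG replicates 2 and 3. By motif, the 19 members with a homology core had median log2 ratios of 0.05, -0.42 and -1.73 in dTAG replicates 1, 2 and 3, and the 8 with a window but no core had 0.09, -0.43 and -1.62.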

How the data were processed

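RNA-seq counts of 3 control and 3 dTAG libraries were used, placed in groups by their titles. The authors deposited raw whole-number counts per gene in a table of 27179 rows. The submitters' processing notes name STAR 2.7.2b, featureCounts, edgeR, limma and build mm10, without their roles. The sources used here do not state the annotation or the use of strand. Rows without a symbol (903; 2.20% to 2.37% of counts in the controls and 2.33%, 6.67% and 14.6% in dTAG replicates 1, 2 and 3) entered neither library sizes nor tests. CPM were computed per 1000000 counts over the named rows. Genes were tested across the whole table with edgeR 4.0.16 in R 4.3.3 (glmQLFTest, two-sided, TMM, filterByExpr with a minimum count of 10, group alone, Benjamini-Hochberg adjustment, adjusted p under 0.05), and SE were taken from the fold change and F. Log2 ratios used a pseudocount of 1 CPM. DESeq2 1.42.0, limma-voom 3.58.1, other scalings and filters, a replicate block and leaving out libraries were the alternatives. The fitting code was tested on simulated data with a smaller spread between replicates than these libraries have, which checks the code and not the power of this design. No library was a copy of another (smallest chi-square per gene between a pair, 9.49). Separate cultures are not stated for the RNA replicates, so the p-values reflect the spread of these 6 libraries alone, possibly a technical one. The members and lists were chosen with earlier results of these data known. All members are named; statistics are printed for the 2 of each role with the highest control mean and for Ccnb1, Cdk1, Plk1 and Top2a, with further members chosen after their values were seen. All 32 members matched the RefSeq table of GRCm38.p6, as did 95.5% of named rows, and 12 members overlap another annotated gene, 6 of them a protein-coding gene. The table had 0 ERCC spike-in rows.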

Additional observations from a re-analysis of the deposited data

Results flagged for a closer look

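Rows of the table without a gene symbol, which entered no comparison, took 6.67% of the counts in dTAG replicate 2 and 14.6% in dTAG replicate 3, above the 2.20% to 2.37% in the controls. These are the same 2 libraries in which most mitotic genes stood below the controls, and what those rows hold was not tested.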

How the results depend on the processing

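The libraries decided the values. Leaving out each library in turn gave 0 to 13222 genes called, 0 to 21 members called, 0 to 65 further mitotic genes called and a members' median log2 change of -2.05 to -0.44, with every upper count and the lowest median coming from the fit without dTAG replicate 1. Without dTAG replicates 2 and 3 together, 16 genes were called, the members' median was -0.021, and the change turned positive for 14 of 32 members, among them, of those with printed statistics, Ccna2 (0.13), Plk1 (0.19), Bub1b (0.015), Cenpf (0.081), Cenpe (0.013), Tpx2 (0.017) and Top2a (0.015). When 1 dTAG library was left out, 0 to 24 members were lower in every remaining dTAG library than in every control. The share of tested genes was 3.96% to 17.8%. From 1 to 2 members were higher, against 24.6% to 61.6% of tested genes. With TMM-scaled CPM, 6 members were lower and 0 higher in all dTAG libraries, against 10.0% and 17.8% of tested genes. These settings were chosen after seeing the data. With library totals and no composition factor, the changes of Plk1 (0.33), Espl1 (0.41) and Aurkb (0.29) turned positive and those of the other 29 members stayed negative, the members' median was -0.52 and the median of all tested genes moved from 0.16 to 1.11, and the members' median in dTAG replicate 1 against the controls was 0.059. Genes called numbered 1398 (all higher) without a filter on low counts, 5196 with DESeq2 (5180 higher, 16 lower) and 13 with the replicate block, and 0 members were called in any of these. Replicate numbers are shared by the groups. Same-numbered deviations from the group means had correlations of 0.02, -0.02 and 0.02. The wide differences between the dTAG libraries could hide a pairing, so these values cannot decide whether the samples were paired. The block changed no call on a member (median -1.41). With limma-voom the members' median was -1.72. The members' median log2 ratio in dTAG replicate 3 was -1.47 with a pseudocount of 5 CPM and -1.96 without Rn45s and the mitochondrial genes in the total. The causes of these shifts were not tested. In dTAG replicates 2 and 3 the members rested on 63 to 1170 and 20 to 348 counts, which limits single values there.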
